A study of Mus musculus with 16 samples.

Results

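The 9 genes studied here build or line the contacts between intestinal epithelial cells, and they were followed in RNA-seq data of the mouse terminal ileum. They were Tjp1, Tjp3 and Cgn, which encode scaffold proteins, Ocln, Marveld2, Marveld3 and F11r, which encode membrane proteins of the tight junction, and Cdh1 and Epcam, which encode adhesion molecules. The members were fixed by name, with earlier results of these data known. Every transcript in the table whose name without its last hyphenated part was a member was taken, which gave 33 transcripts of the 9 genes out of 23299 genes in all, and the RPKM values (reads scaled to transcript length and library size) were summed per gene. All 9 passed the filter on low values, as did 19042 genes of the series.

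The mice were C57BL/6 wild-type littermates (Tas1r3+/+, WT) or Tas1r3-/- animals (KO), which lack the sweet and umami taste receptor subunit TAS1R3 in every tissue. Mice of both sexes entered at 5 to 6 weeks of age. Each genotype received either a normal diet with plain water (ND) or a Western diet (WD), a 60% high-fat diet with a 30% sugar solution, for 10 weeks. GEO labels 4 libraries for each of WT-ND, KO-ND, WT-WD and KO-WD, 2 of each sex. The 2 KO-ND female columns were not used, because for 33 of 33 member transcripts they equalled weighted means of the 2 KO-ND male columns, with weights of 0.75 and 0.25 in one and 0.625 and 0.375 in the other. The 2 KO-WD female columns were averaged into 1 library, because 2 times the second minus the first returned values of at most 6 significant digits for 30 of 33 member transcripts. This left 13 libraries, 4 WT-ND, 2 KO-ND (both male), 4 WT-WD and 3 KO-WD.

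Tight junctions seal the space between neighbouring enterocytes near their apical side. Occludin, tricellulin (Marveld2) and MarvelD3 are 4-pass membrane proteins of 1 family, JAM-A (F11r) is an immunoglobulin-like adhesion molecule, and ZO-1 (Tjp1), ZO-3 (Tjp3) and cingulin (Cgn) tie the membrane proteins to the actin and myosin cytoskeleton. Below the tight junction, E-cadherin (Cdh1) holds cells together in a calcium-dependent way. EpCAM lies along the lateral membrane, where it binds claudin-7. All are expressed in the intestinal epithelium, and ZO-1, JAM-A and cingulin also occur in endothelium.

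On GRCm38 the genes lie at chr7:65296165-65527781 (Tjp1), chr10:81273207-81291581 (Tjp3), chr3:94760069-94786492 (Cgn), chr1:171437535-171464603 (F11r) and chr17:87635979-87651129 (Epcam). Ocln (chr13:100496507-100552718) and Marveld2 (chr13:100595957-100616971) lie on the same strand of 1 chromosome. Cdh1 (chr8:106603351-106670246) and Marveld3 (chr8:109947914-109962203) share a chromosome.

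RefSeq promoter windows of 300 bases, 250 before to 50 after a start site on GRCm38.p6, were found for 7 of the 9 genes, in 10 windows. Marveld3 and Cdh1 had none. Those of Tjp1, Tjp3 and Ocln are shown because these genes differed together from the other 6 on the WD, and that of Epcam because it is the most abundant of the others. Tjp3 and Ocln have 2 windows each, and both are shown. The Ocln windows overlap. Each is written 5′ to 3′ on the gene's strand, with capitals for matches on either strand to the letters CAGGTG (an E-box), AGGTCA (the nuclear receptor half-site) or GGGCGG (a GC box). No 2 matches overlapped in any of the windows.
Tjp1, chr7:65371195-65371494, minus strand: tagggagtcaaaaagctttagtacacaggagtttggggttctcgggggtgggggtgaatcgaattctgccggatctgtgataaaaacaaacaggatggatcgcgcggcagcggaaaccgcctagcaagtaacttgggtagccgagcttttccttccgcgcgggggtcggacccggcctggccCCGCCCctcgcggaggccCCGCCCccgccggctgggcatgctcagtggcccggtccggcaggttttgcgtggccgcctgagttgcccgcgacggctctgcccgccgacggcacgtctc
Tjp3, chr10:81291532-81291831, minus strand: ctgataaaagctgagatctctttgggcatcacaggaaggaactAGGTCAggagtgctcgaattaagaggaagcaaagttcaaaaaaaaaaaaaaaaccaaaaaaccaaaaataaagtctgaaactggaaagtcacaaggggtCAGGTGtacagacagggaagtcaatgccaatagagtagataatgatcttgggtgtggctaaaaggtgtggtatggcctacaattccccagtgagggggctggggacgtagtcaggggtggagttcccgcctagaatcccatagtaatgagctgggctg
Tjp3, chr10:81291218-81291517, minus strand: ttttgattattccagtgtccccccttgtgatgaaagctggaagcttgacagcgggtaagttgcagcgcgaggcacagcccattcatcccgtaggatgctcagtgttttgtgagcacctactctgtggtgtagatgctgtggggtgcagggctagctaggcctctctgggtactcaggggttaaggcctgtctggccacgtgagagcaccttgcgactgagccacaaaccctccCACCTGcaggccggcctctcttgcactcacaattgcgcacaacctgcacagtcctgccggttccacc
Ocln, chr13:100552669-100552968, minus strand: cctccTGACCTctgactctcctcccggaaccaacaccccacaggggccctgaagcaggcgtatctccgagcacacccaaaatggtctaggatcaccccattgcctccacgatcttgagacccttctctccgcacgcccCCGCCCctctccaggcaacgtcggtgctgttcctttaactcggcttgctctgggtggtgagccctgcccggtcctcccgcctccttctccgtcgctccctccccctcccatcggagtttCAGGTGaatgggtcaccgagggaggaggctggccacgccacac
Ocln, chr13:100552449-100552748, minus strand: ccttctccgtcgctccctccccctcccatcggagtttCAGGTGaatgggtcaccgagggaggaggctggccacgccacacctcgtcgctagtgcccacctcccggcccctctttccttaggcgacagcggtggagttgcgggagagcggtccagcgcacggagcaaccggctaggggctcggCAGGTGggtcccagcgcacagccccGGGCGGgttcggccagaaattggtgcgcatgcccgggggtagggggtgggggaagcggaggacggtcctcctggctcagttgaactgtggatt
Epcam, chr17:87635729-87636028, plus strand: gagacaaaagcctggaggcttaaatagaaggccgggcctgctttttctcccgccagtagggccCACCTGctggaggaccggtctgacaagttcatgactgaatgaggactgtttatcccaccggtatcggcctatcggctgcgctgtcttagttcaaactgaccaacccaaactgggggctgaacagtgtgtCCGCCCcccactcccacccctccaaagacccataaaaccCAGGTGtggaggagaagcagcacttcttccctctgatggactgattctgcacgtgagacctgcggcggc
The E-box letters occurred in 8 of the 10 windows, those of Epcam, F11r, Marveld2, Ocln and Tjp3, against 20.2% of all 32851 promoter windows. The half-site was found in 2 windows, 1 of Ocln and 1 of Tjp3, against 16.3% of all windows. The GC box was found in 8 windows, in every matched gene but Tjp3, against 35.7%. The 10 windows held 45.3% to 70.3% G and C bases, against a median of 52.7% over all windows. Windows of Ocln and of Marveld2 overlap, so a match in them can be counted more than once. The letters AACCGGTT, a site of the grainyhead-like epithelial factors, and 2 half-sites in tandem with 1 base between them were in none of the 10, and in 0.146% and 0.0396% of all windows. The TATA letters TATAAA occurred in both Marveld2 windows, which overlap, against 13.6%. These matches describe the letters in the windows and were not tied to any difference reported here.

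Some features of the table bear on the members. Values carried up to 6 significant digits except for 169 of 770354, which carried more. These lay in 70 of 23299 genes, 0.300%, and among the members in Tjp1 (3 values), Tjp3 (6 values) and Ocln (8 values). All 17 were on the WD, 8 in WT-WD and 9 in KO-WD libraries, and none was in the other 6 members. Examples are 14.011185 RPKM for Ocln-205 in KO-WD M2 and 1.8849543 RPKM for Tjp1-203 in KO-WD M1. The ND and WD columns had been written differently. Their sums were 817011 to 819916 RPKM on the ND and 542371 to 685274 RPKM on the WD, so diet and the making of the columns cannot be told apart. The libraries also differed in epithelium. The mean log2 level of 12 epithelium markers was 7.31 in KO-WD M1 and 8.19 to 9.12 in the other 12 libraries, and that of 10 smooth muscle markers was highest in KO-WD M1, at 8.80.

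The labelled tissue and genotype were checked first. The ileal bile acid genes Fabp6 and Slc10a2 were present in all 13 libraries, at 733 to 8785 and 19.5 to 209 scaled RPKM. Tas1r3 was at 1.55 to 2.11 scaled RPKM in WT-ND and 4.32 to 6.52 in WT-WD, and at or below 0.0053 in all KO libraries. Of 12 lists of cell type markers, 1 stood apart between the genotypes on the WD: the mean log2 level of 6 Paneth cell markers was 9.62 to 10.6 in WT-WD and 10.9 to 11.8 in KO-WD, and 9.30 to 11.2 in WT-ND and 10.97 to 11.95 in KO-ND. Among these 6, Lyz1 holds values of more than 6 digits. None of the 6 was at 0 in any group, and their part in the member differences was not tested. Levels are given as scaled RPKM, the deposited RPKM divided by a library factor that equalises most genes. Library depth was not given. The spacing of low values implied 7003129 to 12384100 reads per library, and each member rested on an implied 147 reads or more per library.

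Per length, Epcam was the most abundant member, at 889 ± 381 scaled RPKM (mean ± SD, n = 13 libraries), above F11r in 13 of 13 libraries. F11r (118 ± 46.2) and Cdh1 (116 ± 33.2) could not be ordered, since F11r was the higher in 7 of 13. Tjp3 followed at 80.3 ± 29.9, below Cdh1 in 12 of 13 libraries and above Marveld3 in 13 of 13. Marveld3 (31.7 ± 13.6), Cgn (26.0 ± 9.60) and Ocln (22.0 ± 10.3) lay close together, each above the next in 9 and 10 of 13 libraries. Tjp1 (14.2 ± 6.67) and Marveld2 (10.2 ± 2.45) were the lowest, with Tjp1 above Marveld2 in 9 of 13. This order changed between the groups. In KO-WD the mean of Ocln (33.1) was above that of Marveld3 (28.3), that of Tjp1 (24.1) above that of Cgn (21.7) and that of Tjp3 (103) above that of Cdh1 (99.8). In WT-WD Ocln (12.7) lay below Cgn (25.2), and Tjp1 (8.78) below Marveld2 (10.5). The members thus covered the upper part of the range of all tested genes, from the 61.1th percentile for Marveld2 to the 99.6th for Epcam.

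**Figure D1:**
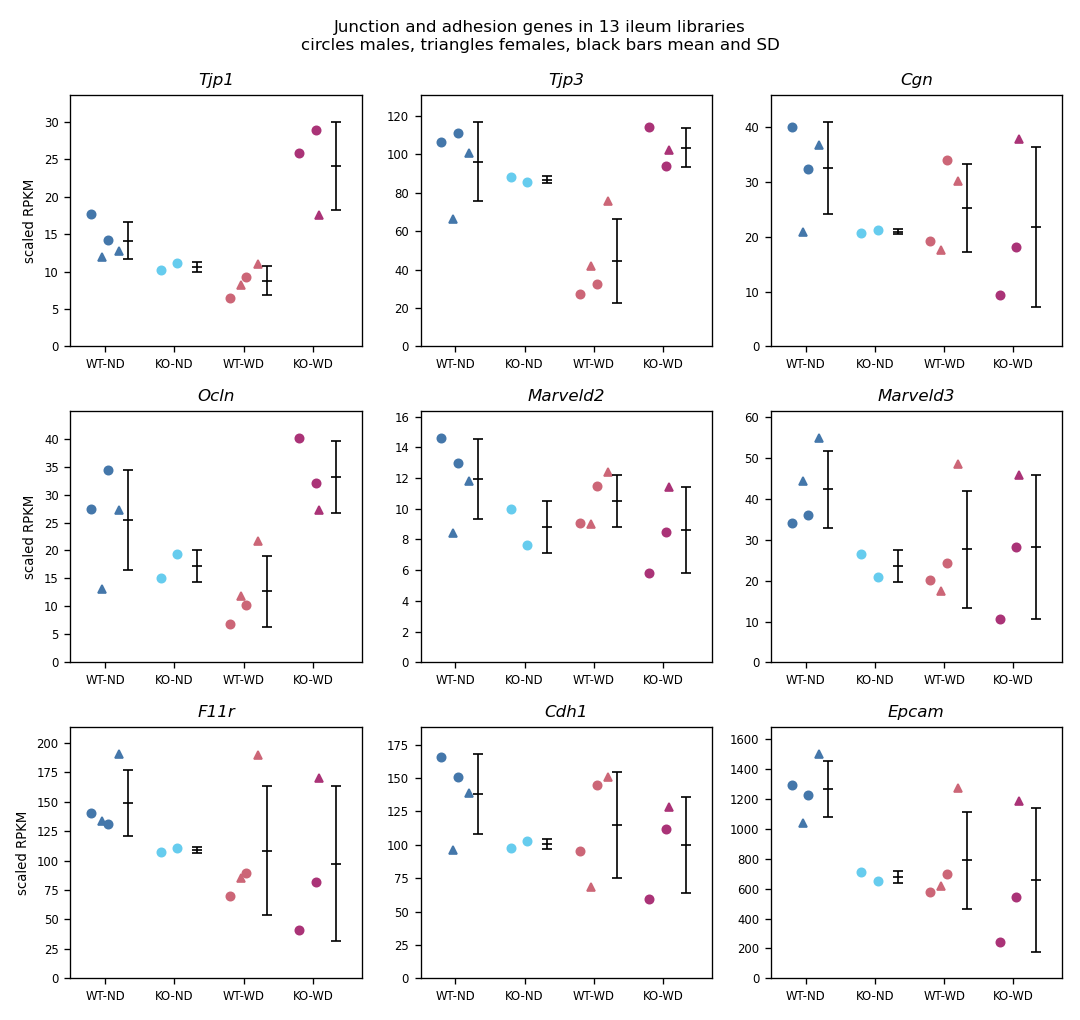
Scaled RPKM of each member in the 13 libraries by group, with circles for males, triangles for females and black bars for the mean and SD. Tjp1, Tjp3 and Ocln are higher in all 3 KO-WD libraries than in all 4 WT-WD libraries, and the other 6 overlap.

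The main question was whether loss of TAS1R3 altered junction genes in mice on the WD. Tjp1, Tjp3 and Ocln were 2.5 to 2.7 times as high in KO-WD as in WT-WD, and all 3 KO-WD libraries lay above all 4 WT-WD libraries. Cgn, Marveld2, Marveld3, F11r, Cdh1 and Epcam differed by -0.48 to -0.08 on the log2 scale, with overlapping groups. A gene was called where limma on log2(scaled RPKM + 0.5) gave an adjusted p below 0.01 and a change of 2-fold or more, which held for 0.0105% of all genes (2 of 19042) and for no member. At an unadjusted p under 0.05, 3 of 9 members passed, all higher in KO-WD, against 2.66% of all genes. Because the members were chosen with earlier results of these data known, such counts describe the members and do not test them as a set. The groups did not overlap for the same 3 members, against 2.81% of all genes. The 3 that passed are the 3 with values of more than 6 digits. Of these 3, a fit without the transcripts that hold such values was possible for Tjp1 alone, and is given beside its values. Over all genes that fit called 0 of 18998, where the full fit called 2 of 19042. An unadjusted limma p under 0.05 was found for 458 genes in it and for 506 in the full fit.

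Of the scaffold genes, Tjp1 stood at 25.8, 28.8 and 17.6 scaled RPKM in KO-WD M1, M2 and F, and at 6.50, 9.33, 8.26 and 11.05 in WT-WD M1, M2, F1 and F2. Both KO-WD males exceeded every other library of the series, and the KO-WD female level was close to WT-ND M1. The difference was 1.40 ± 0.22 (log2 fold change ± SE, 95% confidence interval 0.91 to 1.88), with a limma adjusted p of 0.111. The 2-sided exact permutation p was 0.0286, the smallest that 3 against 4 libraries can give. Tjp1-202, the most abundant ZO-1 transcript by its mean in all 4 groups, has no value of more than 6 digits. It stood at 10.6, 9.03 and 8.69 scaled RPKM in KO-WD and 3.62, 4.81, 4.13 and 7.02 in WT-WD, a difference of 0.91 ± 0.25 (unadjusted p = 0.0028, adjusted p = 0.920, limma over 43552 transcripts). The sum of the 3 Tjp1 transcripts without such values gave 1.23 (limma adjusted p = 0.783). It includes Tjp1-204, annotated as a retained intron transcript of 385 bases. Tjp1-204 was at up to 2.85 scaled RPKM in WT-WD and 2.70 to 10.6 in KO-WD, up to 36.7% of Tjp1 RPKM there. How reads were divided between these transcripts was not tested.

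Tjp3, the epithelial ZO-3 gene, stood at 114, 94.0 and 102 scaled RPKM in KO-WD M1, M2 and F. In WT-WD M1, M2, F1 and F2 it stood at 27.1, 32.6, 41.7 and 75.8. WT-WD F2 was the nearest to the KO-WD libraries. The difference was 1.32 ± 0.30 (0.66 to 1.98), with a limma adjusted p of 0.715 and an exact permutation p of 0.0571. Tjp3 overlaps Apba3 on the opposite strand, and Apba3 was at 20.3 to 39.0 scaled RPKM in WT-WD and 22.8 to 34.5 in KO-WD. Of the 5 Tjp3 transcripts 4 hold values of more than 6 digits. The fifth, Tjp3-206, averaged under 1 scaled RPKM in each group, so no value of Tjp3 without such transcripts could be tested.

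Cingulin, which joins the same scaffold to the cytoskeleton, did not go with them. Cgn stood at 9.35, 18.0 and 37.8 scaled RPKM in KO-WD M1, M2 and F, and at 17.5 to 33.9 in WT-WD. KO-WD M1 was the lowest and KO-WD F the second highest of all 13 libraries. The difference was -0.37 ± 0.40 (-1.23 to 0.49), with an unadjusted p of 0.366.

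Among the MARVEL family genes, Ocln stood at 40.1, 32.0 and 27.3 scaled RPKM in KO-WD M1, M2 and F. In WT-WD M1, M2, F1 and F2 it stood at 6.95, 10.3, 11.8 and 21.6. All 4 WT-WD libraries were below all KO-WD libraries, with WT-WD F2 again the nearest. The difference was 1.45 ± 0.36 (0.66 to 2.24), with a limma adjusted p of 1.00 and an exact permutation p of 0.0571. All 4 Ocln transcripts hold values of more than 6 digits, so no fit of Ocln without such transcripts could be made. These values lay in WT-WD M2, WT-WD F2 and KO-WD M2. WT-WD M1 (6.95), WT-WD F1 (11.8) and KO-WD M1 (40.1) held none for Ocln. The part of these values in the difference was not tested. Marveld2, which marks the points where 3 cells meet, stood at 5.85, 8.52 and 11.4 in KO-WD and 9.01 to 12.4 in WT-WD (-0.31 ± 0.25, unadjusted p = 0.237). Marveld3 stood at 10.5, 28.3 and 45.9 in KO-WD and 17.5 to 48.7 in WT-WD (-0.08 ± 0.44, unadjusted p = 0.853). Neither had groups that stood apart.

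The remaining adhesion genes varied widely within KO-WD. F11r stood at 41.2, 81.5 and 170 scaled RPKM in KO-WD M1, M2 and F, a wider spread than the -0.27 ± 0.42 between the genotypes (95% interval -1.18 to 0.64). Cdh1 stood at 59.2, 112 and 128 in KO-WD and at 68.3 to 151 in WT-WD, a difference of -0.20 ± 0.33 (-0.91 to 0.51). Epcam stood at 243, 541 and 1186 in KO-WD and at 574 to 1270 in WT-WD, a difference of -0.48 ± 0.45 (-1.45 to 0.50). The intervals of these 3 genes reach from -0.91 or lower to 0.50 or higher, so this number of libraries does not show that the genotypes were alike.

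**Figure D2:**
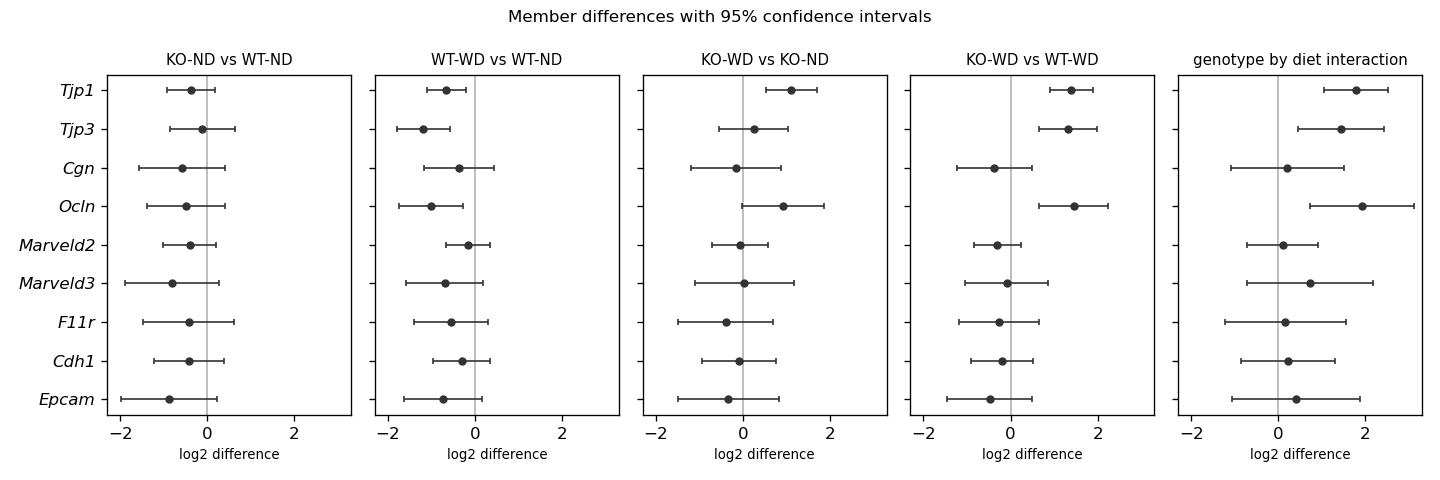
Log2 difference of each member in the 4 comparisons and the genotype by diet interaction, with 95% confidence intervals from 1 limma fit over 13 libraries. In KO-WD against WT-WD the intervals of Tjp1, Tjp3 and Ocln lie above 0, and those of the other 6 members include 0.

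Within sex, the 3 genes kept the direction. Among males the log2 difference between KO-WD and WT-WD was 1.74 for Tjp1, 1.78 for Tjp3 and 2.01 for Ocln (limma adjusted p = 0.155, 0.128 and 0.141, 2 libraries against 2). The single KO-WD female library stood above both WT-WD female libraries for Tjp1 (17.6 against 8.26 and 11.05), Tjp3 (102 against 41.7 and 75.8) and Ocln (27.3 against 11.8 and 21.6). That contrast had 1 library on one side and no test was made.

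In KO-WD, the members split in how they followed the amount of epithelium in each library. In bulk tissue, fewer epithelial cells and less RNA per cell cannot be told apart. The 6 members other than Tjp1, Tjp3 and Ocln all ran in the order M1 below M2 below F in KO-WD, as did 8 of 12 epithelium markers and 27.0% of all genes. Tjp3 and Ocln were highest in KO-WD M1, and Tjp1 was highest in KO-WD M2. Over all 13 libraries, the SD of log2 level fell from 0.59 to 0.21 for Cgn, from 0.63 to 0.23 for F11r, from 0.45 to 0.23 for Cdh1 and from 0.73 to 0.26 for Epcam once the epithelium mean was subtracted. The same subtraction lowered it from 0.34 to 0.25 for Marveld2 and from 0.67 to 0.29 for Marveld3. For Tjp1, Tjp3 and Ocln it went up, from 0.60 to 0.84, from 0.69 to 0.77 and from 0.74 to 0.86.

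**Figure D3:**
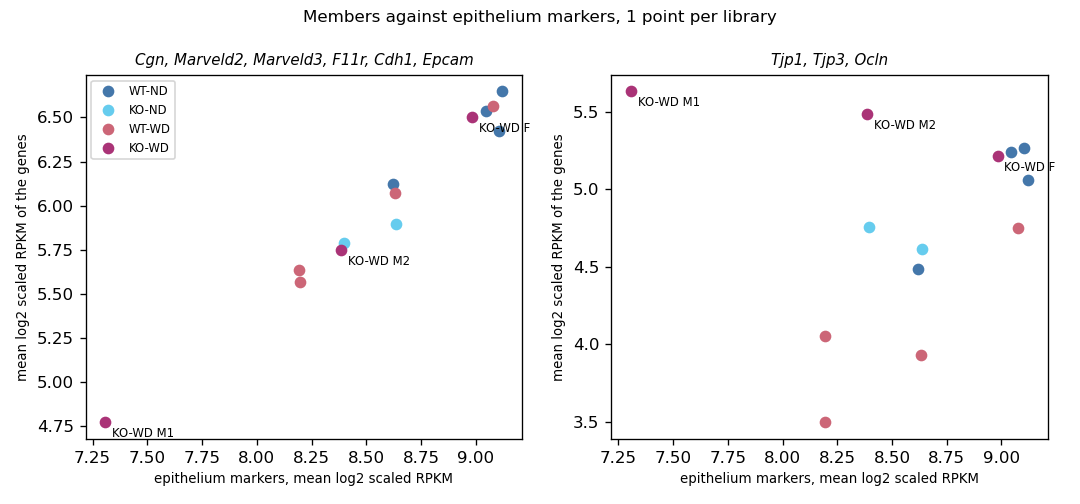
Mean log2 level of 6 members (left) and of Tjp1, Tjp3 and Ocln (right) against the mean of 12 epithelium markers, 1 point per library and coloured by group. On the left KO-WD M1 is lowest on both axes, and on the right the same library, at an epithelium level of 7.31, is the highest.

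With every library centred on its epithelium markers, the 6 members differed between KO-WD and WT-WD by -0.18 (Epcam) to 0.22 (Marveld3) on the log2 scale. Tjp1, Tjp3 and Ocln differed by 1.70, 1.62 and 1.75 (limma adjusted p = 0.764, 0.482 and 0.840). Without WT-WD F2 and KO-WD M1, the libraries with the highest and lowest epithelium level on the WD, the 3 genes differed by 1.45, 1.54 and 1.59. In that fit all 6 other members were above 0, up to 0.80 for Marveld3 (unadjusted p = 0.0138, adjusted p = 0.591). Single libraries also moved these 6. Without KO-WD M1 alone, 5 of them were above 0, at 0.09 (Epcam), 0.10 (Cgn), 0.13 (Cdh1), 0.23 (F11r) and 0.49 (Marveld3), and Marveld2 was at -0.07. Without KO-WD F alone all 6 were lower in KO-WD than in the full fit, at -1.05 for Epcam (unadjusted p = 0.0190, limma adjusted p = 0.401), -0.87 for Cgn (unadjusted p = 0.0273, adjusted p = 0.431), -0.79 for F11r, -0.54 for Marveld3, -0.53 for Marveld2 and -0.42 for Cdh1. Without WT-WD F2 alone F11r and Marveld3 were at 0.03 and 0.22, and the other 4 stayed below 0. The size of the genotype difference of these 6 thus changed with which single library was left out. Its sign also changed for all but Marveld2, which stayed below 0, at -0.53 to -0.07.

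On the ND, the genotype comparison had 4 WT and 2 male KO libraries. All 9 members were lower in KO-ND, by -0.12 (Tjp3) to -0.88 (Epcam) on the log2 scale. None was called by limma, as for 0.0% of all genes (0 of 19042), and none had an unadjusted p under 0.05, against 4.57% of all genes (870 genes). Epcam was at 709 and 652 scaled RPKM in KO-ND and 1040 to 1499 in WT-ND (-0.88 ± 0.51, unadjusted p = 0.107). Marveld3 was at 26.4 and 20.8 against 34.2 to 54.9 (-0.81 ± 0.50, unadjusted p = 0.126). The groups did not overlap for 4 members, Tjp1, Marveld3, F11r and Epcam, where 22.1% of all genes did not. Tjp1-202, at 5.82 and 5.53 in KO-ND, lay within its WT-ND range of 4.71 to 7.16 (-0.01 ± 0.28, unadjusted p = 0.971). The coding Epcam-204 was at 441 and 498 in KO-ND and at 462 or more in WT-ND, so its groups overlapped. It differed by -0.50 (limma unadjusted p = 0.243), and the non-coding Epcam-203 by -1.38 (limma unadjusted p = 0.330). The exact permutation p was 0.0667 for Epcam and Marveld3, the smallest that 2 against 4 can give. Sex was uneven here, with both KO-ND libraries male and 2 of 4 WT-ND libraries female. Among males alone the members lay between -0.32 (F11r) and -0.89 (Epcam), with Tjp3 at -0.33 and Ocln at -0.82, and Ocln, Epcam, Marveld2 and Tjp1 had unadjusted p of 0.0138, 0.0388, 0.0429 and 0.0458 (limma adjusted p of 0.554 to 0.565, 2 libraries against 2). With sex as a covariate F11r was at -0.07, Tjp3 at -0.03 and Epcam at -0.58. Leaving out single libraries gave -0.29 (without WT-ND F1) to -0.04 (without WT-ND M2) for Tjp3, -0.76 (without WT-ND F1) to -0.31 (without WT-ND M2) for Ocln and -0.62 (without KO-ND M1) to -0.22 (without KO-ND M2) for Marveld2. Epithelium markers were also lower in KO-ND, 10 of 12 of them, with a median of -0.46. Centred on those markers the members lay between -0.43 (Epcam) and 0.34 (Tjp3).

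The effect of the WD within WT mice was examined next. All 9 members were lower in WT-WD than in WT-ND, and Tjp3, Ocln and Tjp1 had the smallest p-values. None was called, against 0.00525% of all genes (1 of 19042). At an unadjusted p under 0.05, 3 of 9 passed, all lower, against 15.5% of all genes. Tjp3 was at 107, 111, 66.02 and 100 scaled RPKM in WT-ND M1, M2, F1 and F2, a difference of -1.19 ± 0.28 (limma adjusted p = 0.101). Ocln was at 27.4, 34.3, 13.1 and 27.2 in the same libraries, a difference of -1.01 ± 0.34 (limma adjusted p = 0.191). For both genes WT-WD F2 lay above WT-ND F1, so the groups overlapped.

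Tjp1 was at 17.6, 14.2, 11.9 and 12.8 scaled RPKM in WT-ND M1, M2, F1 and F2, and every WT-WD library was below these. The difference was -0.66 ± 0.21, with a limma adjusted p of 0.171 and an exact permutation p of 0.0286, the smallest that 4 against 4 can give. It was the only member of 9 whose groups did not overlap, where 10.5% of all genes did not. Tjp1-202, the transcript free of values of more than 6 digits, was at 6.70, 5.26, 4.71 and 7.16 scaled RPKM in WT-ND and reached 7.02 in WT-WD F2, so its groups overlapped. Its difference was -0.24 ± 0.23 (unadjusted p = 0.309), and the sum of the 3 Tjp1 transcripts without such values gave -0.43 (unadjusted p = 0.0727). The other 6 ranged from -0.17 (Marveld2) to -0.74 (Epcam). The Epcam value is a sum over transcripts that differed in size of change. Its coding Epcam-204 differed by -0.12 (limma unadjusted p = 0.719). The non-coding Epcam-203 differed by -2.38 (limma unadjusted p = 0.0524). Of 12 epithelium markers, 11 were lower as well, with a median of -0.53. Centred on those markers, Tjp3 differed by -0.74, Ocln by -0.56, Tjp1 by -0.22 and the other 6 by -0.29 to 0.28. Diet and column making cannot be told apart in any of these values.

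Within KO mice, Tjp1 was higher in KO-WD than in KO-ND, where it stood at 10.1 and 11.1 scaled RPKM (1.11 ± 0.27, unadjusted p = 0.0012, limma adjusted p = 0.686). Ocln, at 15.2 and 19.3 in KO-ND, differed by 0.92 ± 0.44 (unadjusted p = 0.0566). Tjp3, at 87.9 and 85.3 in KO-ND, differed by 0.25 ± 0.36 (unadjusted p = 0.506). No member was called, as for 0.0% of all genes, and 1 of 9 had an unadjusted p under 0.05, against 5.54% of all genes (1055 genes by limma). Tjp1-202 differed by 0.68 ± 0.30 (unadjusted p = 0.0388). All KO-WD libraries were above both KO-ND libraries for 3 members, Tjp1, Tjp3 and Ocln, where 20.9% of all genes did not overlap. The exact permutation test of 3 against 2 cannot go below 0.1. The other 6 ranged from -0.39 (F11r) to 0.03 (Marveld3).

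The genotype by diet interaction, the genotype difference on the WD minus that on the ND, was 1.93 ± 0.55 for Ocln, 1.78 ± 0.34 for Tjp1 and 1.44 ± 0.46 for Tjp3. Their unadjusted p-values were 0.0041, 0.00017 and 0.0081, and their limma adjusted p was 1.00. None of the 9 was called, as for 0.0% of all genes. At an unadjusted p under 0.05, 3 of 9 passed, against 1.42% of all genes (270 genes). On Tjp1-202 alone the ZO-1 interaction was 0.92 ± 0.37 (unadjusted p = 0.0285), and on the 3 Tjp1 transcripts without values of more than 6 digits it was 1.54 (unadjusted p = 0.00092). Those 3 include the short Tjp1-204, which alone gave 2.84 ± 0.97. The other 6 lay between 0.10 (Marveld2) and 0.73 (Marveld3), with unadjusted p of 0.291 or more. The comparisons share groups: a low level in WT-WD enters the genotype comparison on the WD, the diet comparison in WT and the interaction alike.

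The transcripts of a member did not always go together. In KO-WD against WT-WD, 11 of 29 tested member transcripts had an unadjusted p under 0.05, all higher in KO-WD, against 3.81% of all 43552 transcripts. These 11 were all the tested transcripts of Tjp1, Tjp3 and Ocln, with differences of 0.91 to 2.0, and none of the 18 tested transcripts of the other 6 members was among them. Of the 11, Tjp1-202 and Tjp1-204 have no value of more than 6 digits. In WT-WD against WT-ND, 9 of 29 passed at that level, 8 of them lower, against 14.9% of all transcripts.

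F11r-203, annotated as a retained intron transcript of 678 bases, separated the diets in both genotypes. It stood at 30.8 to 34.4 scaled RPKM in WT-ND, 38.1 and 31.0 in KO-ND, 4.17 to 16.4 in WT-WD and 4.72 to 12.5 in KO-WD. The difference was -1.88 ± 0.35 in WT and -1.93 ± 0.45 in KO (limma adjusted p = 0.0382 and 0.343 over all transcripts). The coding F11r-201 was at 69.8 to 106 in WT-ND and 49.1 to 133 in WT-WD, with overlapping groups. The short transcript gave 16.4% to 35.5% of F11r RPKM on the ND and 5.98% to 13.2% on the WD.

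Epcam-203, a non-coding transcript of 581 bases, ranged widely between libraries. It stood at 484 to 669 scaled RPKM in WT-ND and at 208 and 211 in KO-ND. In WT-WD M1, M2, F1 and F2 it stood at 53.6, 34.0, 159 and 403. In KO-WD M1, M2 and F it stood at 2.99, 11.7 and 382. On the WD it was thus lower in all 4 male libraries than in the 3 female ones, at 1.23% to 9.34% of Epcam RPKM against 25.7% to 32.2%. The coding Epcam-204 held most of the rest and stood at 238, 528 and 804 in KO-WD and 461 to 867 in WT-WD. Transcript RPKM of short and overlapping isoforms depends on how reads were divided between them, which was not tested.

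The other junction genes were counted from lists of tight junction membrane proteins, tight junction scaffold and polarity proteins, adherens junctions, desmosomes, claudins and EpCAM partners. The files held 81 such genes, of which 74 were tested, and none was called by limma in any of the 4 comparisons or the interaction. In KO-WD against WT-WD, 24 were higher and 50 lower, with a median of -0.07 against -0.003 over all genes, and 1 had an unadjusted p under 0.05. That gene was Cldn7, the claudin that binds EpCAM, at 358 ± 98.1 scaled RPKM in WT-WD and 937 ± 68.3 in KO-WD (1.42 ± 0.25, limma adjusted p = 0.179). It was the only 1 of the 74 with values of more than 6 digits. Next by p were the desmosomal Pkp4 (0.27 ± 0.15, unadjusted p = 0.0936) and Ybx3, which binds ZO-1 (0.37 ± 0.20, unadjusted p = 0.0973).

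In WT-WD against WT-ND, 51 of the 74 were lower, with a median of -0.20, and 13 had an unadjusted p under 0.05, 10 lower and 3 higher. Cldn7 (-1.02 ± 0.23, limma adjusted p = 0.0971), the polarity gene Scrib (-0.52 ± 0.14, adjusted p = 0.135) and the adherens junction gene Nectin2 (-0.77 ± 0.23, adjusted p = 0.156) had the smallest p-values. In KO-ND against WT-ND, 55 of the 74 were lower, with a median of -0.30, and 3 had an unadjusted p under 0.05, led by the polarity scaffold Patj (-0.94 ± 0.37, unadjusted p = 0.0271) and, in the other direction, Nectin1 (0.50 ± 0.22, unadjusted p = 0.0441). In KO-WD against KO-ND, 39 were higher and 35 lower, 4 with an unadjusted p under 0.05, with the smallest p-values for Scrib (-0.58 ± 0.18), Nectin1 (-0.67 ± 0.24) and Cldn7 (0.81 ± 0.29), and limma adjusted p of 0.850 or more. The interaction had an unadjusted p under 0.05 for 1 gene, Cldn7 (1.83 ± 0.37, unadjusted p = 0.00032), then Pkp4 (0.48 ± 0.22, unadjusted p = 0.0533) and Camsap3 (0.74 ± 0.47, unadjusted p = 0.138).

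As a description, the tested non-members whose pattern over 13 libraries was most like the mean of the 9 standardised members were Ick, Sel1l3, Efhd2, Spint2 and Pcdh1, with Pearson's r of 0.96, 0.94, 0.93, 0.93 and 0.93. Spint2 encodes a membrane protease inhibitor that restrains the cleavage of EpCAM. For 2 subsets formed after the values were seen, the most like genes were Cldn7, Muc2, Cpt2, Gm20596 and Lyz1 for Tjp1, Tjp3 and Ocln (r of 0.92 to 0.81), and Snx9, Lasp1, Tmem30b, Gpa33 and Cd82 for the other 6 (r of 0.99 to 0.98). Of the 20 genes most like the first subset, 7 held values of more than 6 digits, and of the 20 most like the second, 0. All points share the libraries and their epithelial content.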

How the data were processed

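Ileal libraries of Tas1r3+/+ and Tas1r3-/- mice on the ND or WD were analysed. Per the labels the authors used Partek software and the mm10 build. The study's methods add STAR alignment and Ensembl transcripts. The deposited values are RPKM per transcript, made by the authors, and equal in the table and the sample files. Read counts were not used here, so no count model was run. RPKM were summed per gene and scaled to 13 libraries by a trimmed mean of log ratios (30% of ratios, 5% of levels trimmed). Genes with at least 1 RPKM in 2 libraries were kept. log2(scaled RPKM + 0.5) was fitted with limma 3.58.1 (R 4.3.3, trend, 4 groups in 1 model), Benjamini-Hochberg adjusted over 19042 genes. Genes with an adjusted p under 0.01 and a fold of at least 2 were called. Exact permutation tests over libraries were two-sided. The fit was also run on simulated data with independent noise, which did not hold the differences in epithelium or column making seen here. The labels do not say which samples are separate animals, so p-values measure the spread between these libraries. Depth was estimated from the steps between values of 0.5 to 200 reads, of which 86.9% to 88.2% were whole reads within 0.02. Transcript types and overlaps come from GENCODE for GRCm38, with 32 of 33 member transcripts matched by name, and a name can differ between releases. Tjp1, Tjp3 and Marveld2 overlap other annotated genes, and whether counting used strand is not given in the sources used here. Members, lists and tests were chosen with earlier results of these data known. All 9 members were named throughout. Of the other junction genes, those with the 3 smallest p-values in each comparison, and any called, were named, except 1 that is not reported here, and of like genes the 5 with the highest r. Alternatives covered scaling, pseudocount, filter, sex, replicate block, columns used, transcripts, thresholds and each library left out.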

Additional observations from a re-analysis of the deposited data

Results flagged for a closer look

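The genotype difference of 3 genes differed between the diets at an unadjusted p under 0.05. The difference on the WD minus that on the ND was 1.78 for Tjp1, 1.44 for Tjp3 and 1.93 for Ocln on the log2 scale, with limma adjusted p of 1.00 for each. For Tjp1 both KO-ND libraries lay below all 4 WT-ND libraries and all 3 KO-WD libraries above all 4 WT-WD libraries. Among all genes the genotypes did not overlap for 22.1% in ND mice and for 2.81% in WD mice. The most abundant transcript, Tjp1-202, was at 5.82 and 5.53 scaled RPKM in KO-ND, within its WT-ND range of 4.71 to 7.16, so the separation on the ND did not hold for it, and its interaction was 0.92. Within the groups of 4 libraries, 18 checks for a library far from the others found 0.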

How the results depend on the processing

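Under 33 alternatives, 1376 member values were recomputed, and 71 had another sign than in the full fit, 5 of them of Tjp1, Tjp3 or Ocln and none in KO-WD against WT-WD for these 3. Of 164 counts of called members 159 stayed at 0. Without scaling, WT-WD against WT-ND gave 3 called members, Tjp1 (-1.10), Tjp3 (-1.65) and Ocln (-1.46), while the median of all genes moved from 0.02 to -0.38. At an unadjusted p under 0.01 and a fold of at least 2, 3 members passed in KO-WD against WT-WD, 1 in WT-WD against WT-ND, 1 in KO-WD against KO-ND and 3 in the interaction. Without WT-WD F2 and KO-WD M1, an alternative chosen after seeing the data, Marveld3 turned to 0.80 in KO-WD against WT-WD. The cause of these changes was not tested. In KO-WD against WT-WD, leaving out each library gave 1.26 to 1.61 for Tjp1, 1.13 to 1.61 for Tjp3 and 1.21 to 1.74 for Ocln. With all 16 columns as labelled, Tjp1 had a limma adjusted p of 0.0137. That fit counts columns that can be computed from other columns as separate libraries, so its p-values can be too small. In KO-ND against WT-ND it gave 2737 genes with an unadjusted p under 0.05, where the 13 libraries gave 870. With a replicate block on sex and number no member was called, and Tjp1, Tjp3 and Ocln differed by 1.43, 1.48 and 1.62. The labels give same-numbered libraries no shared litter, batch or day. Deviations of same-numbered libraries correlated at -0.20 to 0.57, among them 0.57 and 0.42 for the WT-WD and KO-WD males M1 and M2 but -0.14 for WT-WD F1 and KO-WD F, so not every pair was above 0.1 and a pairing was neither shown nor excluded. With the block Tjp3 turned to 0.01 in KO-ND against WT-ND. With the highest transcript of each gene alone the Tjp1 interaction was 0.97. The fit without transcripts of more than 6 digits gave no value for Tjp3 or Ocln. At the lowest implied depth, 147 reads for Marveld2 in KO-WD M1, counting error alone was 8.25%.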
